A study of Mus musculus with 6 samples.

Results

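The nuclear genes for the proteins of the mitochondrial ribosome were examined in the hearts of mice with and without extra Pontin in their cardiomyocytes. Members were all protein-coding genes in the deposited gene table whose symbol starts with Mrpl or Mrps followed by a number, which gave 78 of the 56748 genes listed, and 77 of them had enough counts to be tested. Of the 78 genes, 51 encode proteins of the large subunit and 26 proteins of the small subunit, counting Mrps18a and Mrps30 with the large subunit, where their proteins sit. Mrps36 was kept apart, because its protein is now known as a component of the 2-oxoglutarate dehydrogenase complex of the citric acid cycle.

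RNA was sequenced from heart tissue, 1 library per mouse, of 3 WT and 3 Pontin cTG animals. In Pontin cTG mice the α-myosin heavy chain promoter, which works in cardiomyocytes, drives a human Pontin cDNA with a flag tag on a C57Bl/6 background. WT mice are littermates that lack the transgene. Male mice of both genotypes started treatment at 10 weeks of age and received angiotensin II (Ang-II), a peptide hormone that raises blood pressure and enlarges the heart, from a pump under the skin for 14 days at a daily dose of 1.5 mg per kg of body weight. No group without Ang-II was analysed here, so each value below compares 2 genotypes under the same stress.

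The mitochondrial ribosome, or mitoribosome, translates the few mRNAs of the mitochondrial genome, all of which encode subunits of the respiratory chain and of ATP synthase. Its RNAs are made inside the mitochondrion, whereas all of its proteins are encoded in the nucleus, made in the cytosol and imported. It descends from a bacterial ribosome, so many of its proteins have bacterial counterparts and the others were added during the evolution of mitochondria. The heart depends on oxidative phosphorylation, and inherited defects of several mitoribosomal proteins are known to cause cardiomyopathy.

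Promoters of these genes are compact and many lack a TATA box. Of the 78 members, 69 had a promoter window in the RefSeq table of GRCm38.p6, from 250 bases before to 50 bases after the annotated start. The 3 windows below are shown because each carries a site type that is frequent among the members, with the matching letters in capitals. The Mrps21 window (chr3:95871465-95871764, minus strand) belongs to the member with the smallest p between genotypes and holds an ETS-type site. The Mrps11 window (chr7:78782881-78783180, plus strand) holds a YY1-type site and overlaps the window of Mrpl46, which is transcribed away from it on the other strand. The Mrps18b window (chr17:35916391-35916690, minus strand) holds an NRF-1-type site at both ends and an ETS-type site.
Mrps21: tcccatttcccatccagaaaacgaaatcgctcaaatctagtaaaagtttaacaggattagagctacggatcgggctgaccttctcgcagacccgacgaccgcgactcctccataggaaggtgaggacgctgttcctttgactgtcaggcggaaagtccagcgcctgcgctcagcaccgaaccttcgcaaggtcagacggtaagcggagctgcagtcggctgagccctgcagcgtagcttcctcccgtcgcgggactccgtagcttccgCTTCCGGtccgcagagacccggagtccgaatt
Mrps11: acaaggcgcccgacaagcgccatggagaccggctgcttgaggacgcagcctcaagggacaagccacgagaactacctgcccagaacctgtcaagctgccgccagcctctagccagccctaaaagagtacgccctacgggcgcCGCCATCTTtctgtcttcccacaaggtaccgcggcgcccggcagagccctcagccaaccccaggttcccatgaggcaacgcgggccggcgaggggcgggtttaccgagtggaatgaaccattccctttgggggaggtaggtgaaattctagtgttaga
Mrps18b: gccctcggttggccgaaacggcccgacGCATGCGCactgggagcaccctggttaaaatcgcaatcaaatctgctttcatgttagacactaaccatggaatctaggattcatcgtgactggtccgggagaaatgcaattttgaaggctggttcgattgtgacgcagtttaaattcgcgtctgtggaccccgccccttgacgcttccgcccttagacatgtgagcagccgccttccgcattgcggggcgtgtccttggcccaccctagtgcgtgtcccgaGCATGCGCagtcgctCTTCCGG

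Both strands were searched for fixed letters. Some genes had more than 1 window, and a gene was counted when any of its windows held the letters. The ETS core CCGGAAG, which is bound by GABP (also called NRF-2), was found in 26 of the 69 members (37.7%), against 12.9% of 17492 protein-coding genes. The NRF-1 sequence GCGCATGC was in 8 of the 69 (11.6%, against 3.94%), and the YY1 core AAGATGGCG was also in 8 (11.6%, against 2.14%). At least 1 of these 3 was found in 36 members (52.2%, against 17.6%). For comparison, CCAAT was found in 39.1% of the members against 42.3% of protein-coding genes, and TATAAA in 7.25% against 14.8%. These are matches of letters and not measured binding, and neighbouring members such as Mrps11 and Mrpl46 share bases of their windows.

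Total counts ran from 12436822 to 13194038 in WT libraries and from 14584102 to 16888124 in Pontin cTG libraries. Normalised counts, used throughout, are read counts scaled by the TMM method to one common library size. Ruvbl1, the mouse gene of Pontin, had 216, 221 and 217 normalised counts in WT and 249.9, 250.02 and 239.95 in Pontin cTG hearts, with no overlap between groups (log2 fold change 0.18, SE 0.12), although the transgene is human and its reads may not map to the mouse gene. Pontin cTG replicate 2 stood apart on the first principal component of all genes, at 50.9 where the other 5 libraries lay between -23.1 and 16.2, so counts of members are given with and without it. All 8 cardiomyocyte markers were detected, with a summed level of 49296 to 56457 CPM (counts per 1e6 counts) in WT and 48994 to 54087 in Pontin cTG hearts. The summed levels overlapped between groups for markers of fibroblasts (1067 to 1851 CPM in WT, 1025 to 1686 in Pontin cTG), endothelial cells (934 to 946, 811 to 1140.0), macrophages (219 to 359, 173 to 253, with 5 of 7 genes lower and a median log2 fold change of -0.39) and erythroid cells (936 to 1586, 830.2 to 1506). Those of smooth muscle cells and pericytes did not overlap (1367 to 1474 in WT, 1180 to 1288 in Pontin cTG, 1 of 5 tested genes higher). Lymphocyte markers summed to 0.625 to 2.74 CPM and adipocyte markers to 0 to 0.485 CPM per library, and no marker of any list was at 0 in all libraries. Their part in the results below was not tested, and in heart tissue a smaller share of a cell type and less RNA per cell cannot be told apart.

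No mitoribosomal protein gene passed the test between Pontin cTG and WT hearts, but most of them had a slightly higher value in Pontin cTG. Of the 77 tested members, 70 had a log2 fold change above 0 and 7 below 0, where all 13888 tested genes split into 6976 above and 6912 below. The median log2 fold change was 0.13 for the members, with quartiles of 0.050 and 0.21, against 0.0013 for all genes. The values ran from -0.17 for Mrpl19, a protein of the large subunit, to 0.42 for Mrpl14, which lies on the face of the large subunit that meets the small subunit. At an adjusted p under 0.05, the quasi-likelihood test of edgeR, adjusted by Benjamini-Hochberg over all genes tested, called 0 of the 77 members and 0 of all genes (0%), with an adjusted p of 0.999 for each member named below. DESeq2 and limma-voom also called 0 members, and they called 1 and 3 of all 13888 tested genes.

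At an unadjusted p under 0.05, 3 members had higher values in Pontin cTG hearts (3.9% of those tested, where 1.02% of all genes did) and 0 had lower values (1.03% of all genes did). In either direction, DESeq2 had 2 members at that threshold (2.6%, against 1.58% of all genes) and limma-voom 3 (3.9%, against 5.83% of all genes), so the members' share was below the background in limma-voom. In 17 of the 77 members (22.1%), all Pontin cTG libraries lay above all WT libraries, an arrangement found in 4.7% of all tested genes. Only Mrpl19 had every Pontin cTG library below every WT library (1.3% of members, 3.63% of all genes). With Pontin cTG replicate 2 left out, 20 members (26%) had both remaining Pontin cTG libraries above all WT libraries, and 11% of all genes did. With 3 mice a group, the smallest p of an exact permutation test on 1 gene is 0.1.

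**Figure D1:**
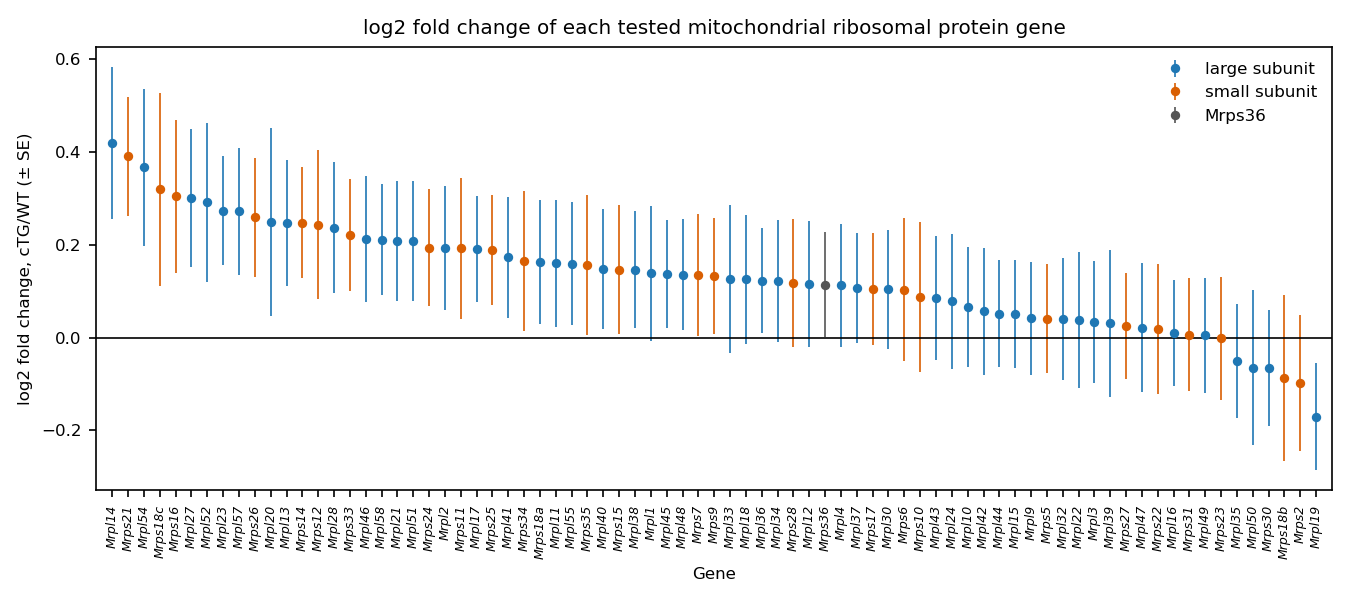
The log2 fold change of Pontin cTG over WT for each of the 77 tested members, ordered by size, with bars of 1 standard error and colours for the large subunit, the small subunit and Mrps36. A total of 70 points lie above 0, and 41 of the 77 points lie farther from 0 than their own bar is long.

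The members with higher values came from both subunits. In the large subunit, 46 of 50 tested members lay above 0, with a median log2 fold change of 0.13, and in the small subunit 23 of 26, with a median of 0.14. Proteins with a bacterial counterpart and proteins particular to mitochondria had similar medians in the large subunit, 0.12 for 29 genes and 0.15 for 21 genes. In the small subunit the medians were 0.14 for 16 genes and 0.091 for 10 genes. The summed level of the small subunit genes, in CPM per kilobase of exon, was between 0.403 and 0.421 of that of the large subunit in WT libraries and between 0.408 and 0.421 in Pontin cTG libraries, so this ratio overlapped between genotypes.

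The shift was not even across mice. The members together took 0.352%, 0.343% and 0.362% of all counts in the WT libraries and 0.367%, 0.435% and 0.375% in the Pontin cTG libraries, each in the order of replicates 1 to 3. On the scale of CPM after normalisation their sums were 3630, 3393 and 3667 in WT and 3710, 4036 and 3895 in Pontin cTG hearts, which did not overlap, although WT replicate 3 and Pontin cTG replicate 1 lay close to each other. The median member deviated from its own mean over the 6 libraries by -0.039, -0.12 and -0.016 on the log2 scale in the WT libraries and by -0.012, 0.19 and 0.071 in the Pontin cTG libraries. Pontin cTG replicate 2 was thus the highest and WT replicate 2 the lowest, and Pontin cTG replicate 1 was nearest to the WT libraries. Pontin cTG replicate 2 was the highest of the 6 libraries for 46 of the 77 members, Pontin cTG replicate 3 for 18, and no other library for more than 5. WT replicate 2 was the lowest library for 43 members, WT replicate 1 for 11, and Pontin cTG replicate 2 itself for 9.

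**Figure D2:**
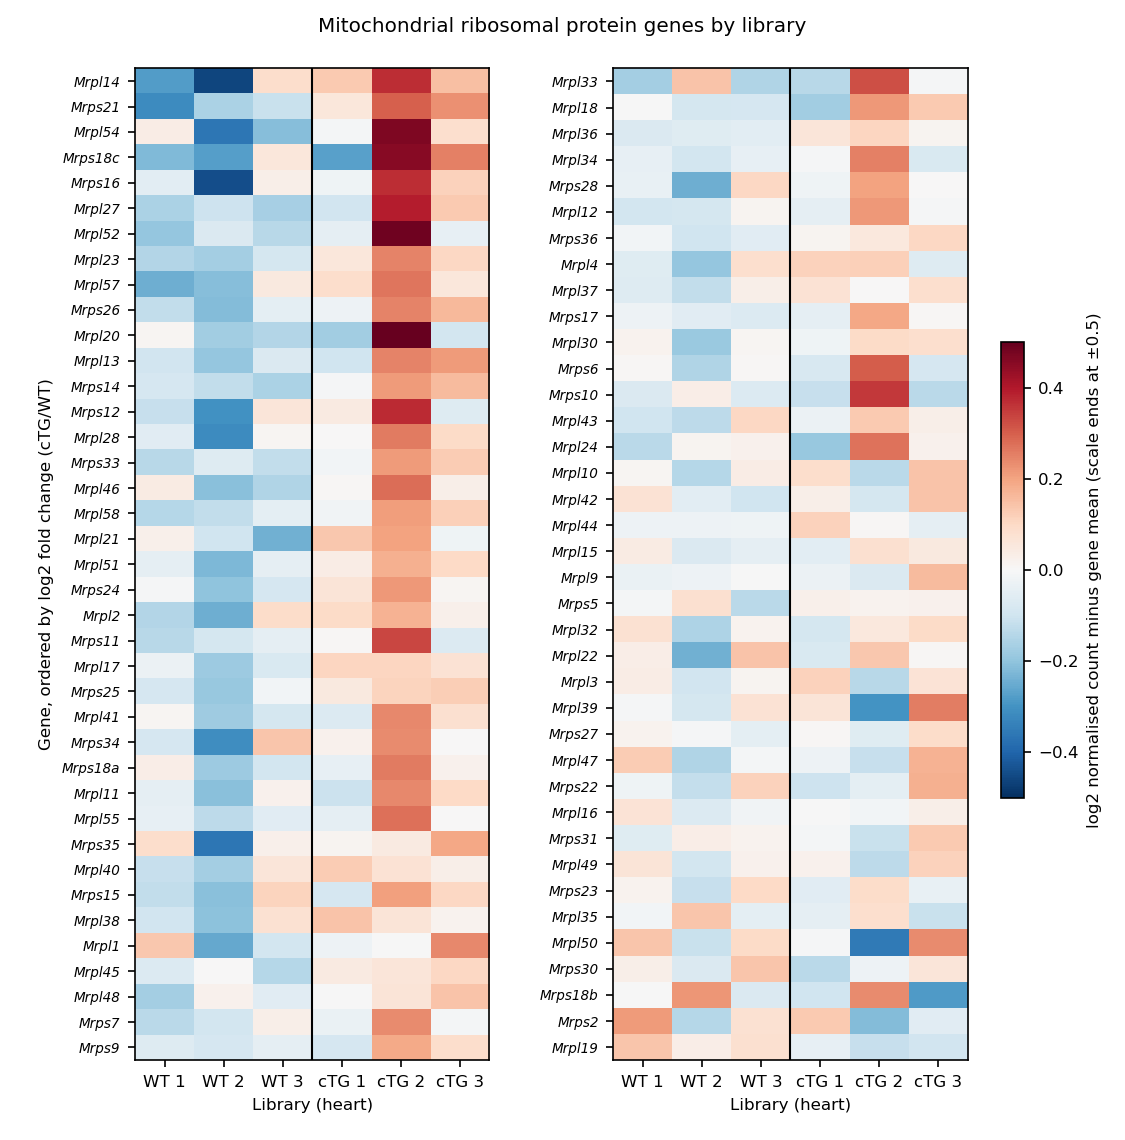
Each row is 1 of the 77 tested members, ordered by log2 fold change from the top of the left panel to the bottom of the right panel, and each column is a library. Colour gives the log2 normalised count minus the gene's mean over the 6 libraries, from -0.5 (blue) to 0.5 (red). Pontin cTG replicate 2 holds most of the darkest red and WT replicate 2 most of the darkest blue.

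Without Pontin cTG replicate 2, 65 of 77 members still had a log2 fold change above 0 and the median was 0.086. Without WT replicate 2, 64 did and the median was 0.10. The 77 members followed each other loosely over the 6 libraries. The median of the 2926 pairwise Pearson correlations was 0.45, with quartiles of -0.011 and 0.73, over libraries that share genotype, depth and the position of Pontin cTG replicate 2.

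Mrps21, a small protein of the small subunit (ENSMUSG00000054312, chromosome 3 from 95769946 to 95778831 in the table's coordinates, GRCm39), came first by p, with normalised counts of 583, 649 and 671 in WT and of 754, 892 and 848 in Pontin cTG mice, in the order of replicates 1 to 3. All 3 Pontin cTG libraries lay above all WT libraries. The group means were 634 ± 46.0 for WT and 831 ± 70.7 for Pontin cTG (SD, n = 3 each). This is a log2 fold change of 0.39 (SE 0.13), with an unadjusted p of 0.0138 in edgeR.

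Mrpl14 (ENSMUSG00000023939, chromosome 17 from 45997248 to 46009421) had the largest log2 fold change of all members, 0.42 (SE 0.16), with an unadjusted p of 0.0308 in edgeR. It had normalised counts of 537, 473 and 693 in WT and of 714, 842 and 722 in Pontin cTG mice, in the order of replicates 1 to 3. The groups did not overlap, but WT replicate 3 lay close to the lowest Pontin cTG library, and the WT spread was wide. The means were 568 ± 113 for WT and 759 ± 71.5 for Pontin cTG (SD, n = 3 each).

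Mrpl23 (ENSMUSG00000037772, chromosome 7 from 142086423 to 142094484) encodes a protein at the rim of the exit tunnel, through which the new polypeptide leaves the large subunit. It had normalised counts of 463, 454 and 481 in WT and of 532, 607 and 549 in Pontin cTG mice, in the order of replicates 1 to 3, again without overlap. The log2 fold change was 0.27 (SE 0.12), with an unadjusted p of 0.0456 in edgeR. A processed pseudogene of this gene, Mrpl23-ps1, had 38 to 83 raw counts per library, so some reads may be split between the copies.

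Mrpl54, Mrps14 and Mrpl27 completed the 6 members with the smallest p among those with higher values. Mrpl54, a large subunit protein particular to mitochondria, had 379, 287 and 319 in WT and 367, 510.3 and 391.5 in Pontin cTG hearts, where WT replicate 1 lay above Pontin cTG replicate 1 and Pontin cTG replicate 2 lay far above the rest (log2 fold change 0.37 (SE 0.17)). Mrps14, a small subunit protein whose human gene is linked to cardiomyopathy, had 555, 539.6 and 527 in WT and 585, 682 and 657 in Pontin cTG hearts, with no overlap (log2 fold change 0.25 (SE 0.12)). Mrpl27, whose bacterial counterpart reaches towards the peptidyl transferase centre, had 308, 319.7 and 306 in WT and 322, 451 and 377 in Pontin cTG hearts. Its lowest Pontin cTG library lay only just above the highest WT library, and its log2 fold change was 0.30 (SE 0.15).

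**Figure D3:**
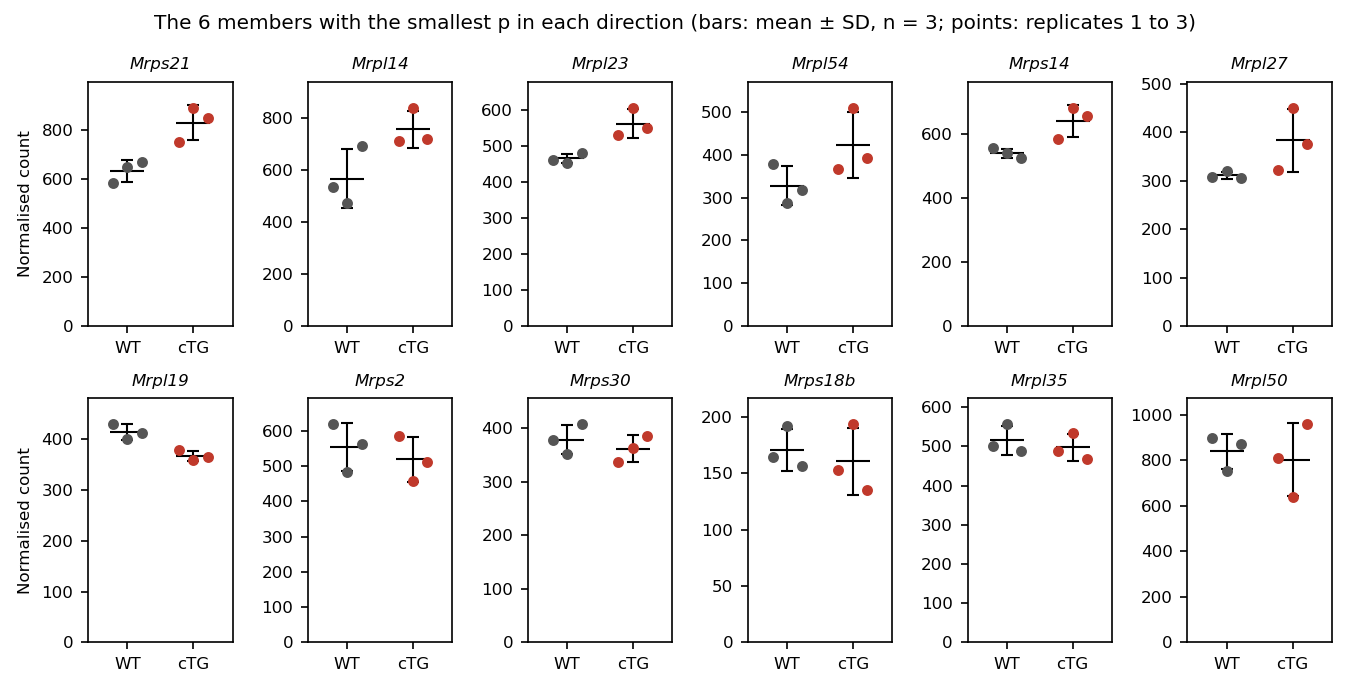
Normalised counts on axes that start at 0 for the 6 members with the smallest p among those with higher values in Pontin cTG (top) and among those with lower values (bottom). Points are replicates 1 to 3 from left to right, with the mean and SD of each group (n = 3), and in the bottom row only Mrpl19 has groups that do not overlap.

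Among the 7 members with lower values, Mrpl19 (ENSMUSG00000030045, chromosome 6 from 81934832 to 81942939) came first by p, with normalised counts of 429, 399 and 412 in WT and of 379, 359.6 and 365 in Pontin cTG mice, in the order of replicates 1 to 3. All Pontin cTG libraries lay below all WT libraries, with a log2 fold change of -0.17 (SE 0.11) and an unadjusted p of 0.172 in edgeR. The other 6 were Mrps2, Mrps30, Mrps18b, Mrpl35, Mrpl50 and Mrps23, with log2 fold changes of -0.098, -0.066, -0.088, -0.050, -0.065 and -0.0017, and in each of them the groups overlapped. Mrpl50, a large subunit protein particular to mitochondria, varied most among these between Pontin cTG mice. It had 896, 753 and 869.7 in WT and 811, 638 and 959 in Pontin cTG hearts, and its log2 fold change was 0.077 when Pontin cTG replicate 2, the lowest of all 6 libraries, was left out.

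Members were also read by their role. The stalk of the large subunit recruits translation factors and is built from Mrpl10, Mrpl11 and Mrpl12, and their log2 fold changes were 0.067 (SE 0.13), 0.16 (SE 0.14) and 0.12 (SE 0.14). Mrpl45, which anchors the mitoribosome to the inner membrane next to the tunnel exit, had 853, 895 and 810.5 in WT and 922, 933 and 959.8 in Pontin cTG hearts. The groups did not overlap, yet the log2 fold change was only 0.14 (SE 0.12). Mrpl58, which keeps the fold of a peptidyl-tRNA hydrolase and sits in the large subunit, had 461, 468 and 492 in WT and 503, 589 and 553 in Pontin cTG hearts, also without overlap, and a log2 fold change of 0.21 (SE 0.12). Mrps12, a protein of the decoding centre, had 334, 293 and 377 in WT and 373, 468 and 346 in Pontin cTG hearts, where the groups overlapped and Pontin cTG replicate 2 was the highest (log2 fold change 0.24 (SE 0.16)).

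Of 4 genes chosen because their human counterparts are linked to cardiomyopathy, 3 had small log2 fold changes. Mrpl3, next to the peptidyl transferase centre, had 1509, 1376 and 1483 in WT and 1594, 1335 and 1544 in Pontin cTG hearts (log2 fold change 0.034 (SE 0.13)). Mrpl44, a protein with the fold of a double-strand RNase, had 711, 711 and 713 in WT and 784, 728 and 702 in Pontin cTG hearts (log2 fold change 0.051 (SE 0.12)). Mrps22, a small subunit protein particular to mitochondria, had 254, 238 and 279 in WT and 240.2, 249 and 292 in Pontin cTG hearts (log2 fold change 0.018 (SE 0.14)). In all 3 genes the log2 fold change was smaller than its SE and the groups overlapped, whereas the groups of Mrps14 did not.

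Mrps18a, Mrps18b and Mrps18c are 3 paralogs related to the bacterial protein S18, of which only Mrps18c was counted above as its counterpart and the others as particular to mitochondria. They take different places in the mitoribosome, with the protein of Mrps18a in the large subunit and those of Mrps18b and Mrps18c in the small subunit. Mrps18a had 631, 544 and 578 in WT and 599, 737 and 625 in Pontin cTG hearts and a log2 fold change of 0.16 (SE 0.13). Mrps18b had 164, 192 and 157 in WT and 153, 194 and 135 in Pontin cTG hearts and a log2 fold change of -0.088 (SE 0.18). Mrps18c had 137, 131 and 165 in WT and 132, 218 and 189.7 in Pontin cTG hearts and a log2 fold change of 0.32 (SE 0.21). In each paralog Pontin cTG replicate 2 was the highest of the 6 libraries and the groups overlapped, so the paralogs did not separate beyond their errors. Mrps5, a small subunit protein near the mRNA entry, had 516, 551 and 474 in WT and 530.2, 527 and 528 in Pontin cTG hearts and a log2 fold change of 0.041 (SE 0.12), with hardly any spread between Pontin cTG mice. Mrps36, the dehydrogenase component, had 718, 676 and 696 in WT and 731, 752 and 779.6 in Pontin cTG hearts, with no overlap and a log2 fold change of 0.11 (SE 0.11).

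Levels differed widely between members. Per kilobase of the gene's summed exon length, the highest mean level over the 6 libraries belonged to Mrpl12 with 107 (from 99.8 to 124) CPM per kilobase, followed by Mrps23, a small subunit protein particular to mitochondria, with 95.04 (from 87.7 to 102) and by Mrpl34 with 80.2 (from 74.9 to 95.3). Over the libraries, the ranges of Mrpl12 and Mrps23 overlapped, as did those of Mrps23 and Mrpl34. The lowest tested members were Mrps30 with 3.95 (from 3.59 to 4.35), Mrpl32 with 3.75 (from 3.36 to 4.00) and Mrps10 with 2.55 (from 2.31 to 3.24) CPM per kilobase, of which the ranges of Mrps30 and Mrpl32 overlapped. This order depended on the length used. Summed exon length counts every annotated exon, and for Mrps10 it was 8079 bp against 1018 bp for the principal transcript of GENCODE M21. With the principal transcript, Mrps10 moved from rank 77 to rank 49, Mrpl23 from 59 to 16, and the highest level was 367 CPM per kilobase for Mrpl42, ahead of Mrpl12 with 124.

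Mrpl53 was the 1 member that did not pass the filter on low counts. It had 0 counts in all 6 libraries, and its interval (chromosome 6 from 83086021 to 83086920) lies wholly inside that of another gene on the same strand, Gm42688, which had 2 to 12 counts per library. A count of 0 at this position therefore does not show that the gene was silent. In all, 41 members overlapped another gene of the table, 12 of them on the same strand and 22 with a protein-coding gene on the opposite strand. Whether strand was used in counting is not given in the sources used here, so reads of such pairs may not have been separated.

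The genes of the mitoribosome are short, and in these libraries length went with the log2 fold change. The median summed exon length was 2533 bp for the members and 4317.5 bp for all tested genes. Over all genes, Spearman's correlation of log2 fold change with length was -0.31, and over the 77 members it was -0.29, both across genes, which are not independent replicates. A gene's deviation from its mean correlated with its length by 0.18, 0.18 and 0.11 in the WT libraries and by 0.084, -0.20 and -0.16 in the Pontin cTG libraries. The relation thus differed in sign between Pontin cTG replicates 2 and 3 on one side and the other 4 libraries on the other.

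Members were therefore set against genes of like summed exon length, with all tested genes cut by this length into 4 groups of equal size. Among genes of 57 to 2610 bp, the median log2 fold change was 0.15 for 41 members and 0.10 for all genes. It was 0.11 for 17 members against 0.032 between 2611 and 4317 bp, 0.073 for 12 members against -0.014 between 4318 and 6736 bp, and 0.14 for 7 members against -0.097 above that. The median of the members lay above that of all genes in each group, by the least in the shortest one. Summed exon length can differ much from the length of the principal transcript. For the 7 members of the longest group, the latter was 478 (Mrpl33), 1018 (Mrps10), 1223 (Mrpl13), 4162 (Mrps35), 4203 (Mrpl15), 4285 (Mrpl48) and 7300 bp (Mrpl17). A match by principal transcript was not made. In the shortest group, 9 of 41 members had all Pontin cTG libraries above all WT libraries, where 9.21% of all genes of that group did.

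**Figure D4:**
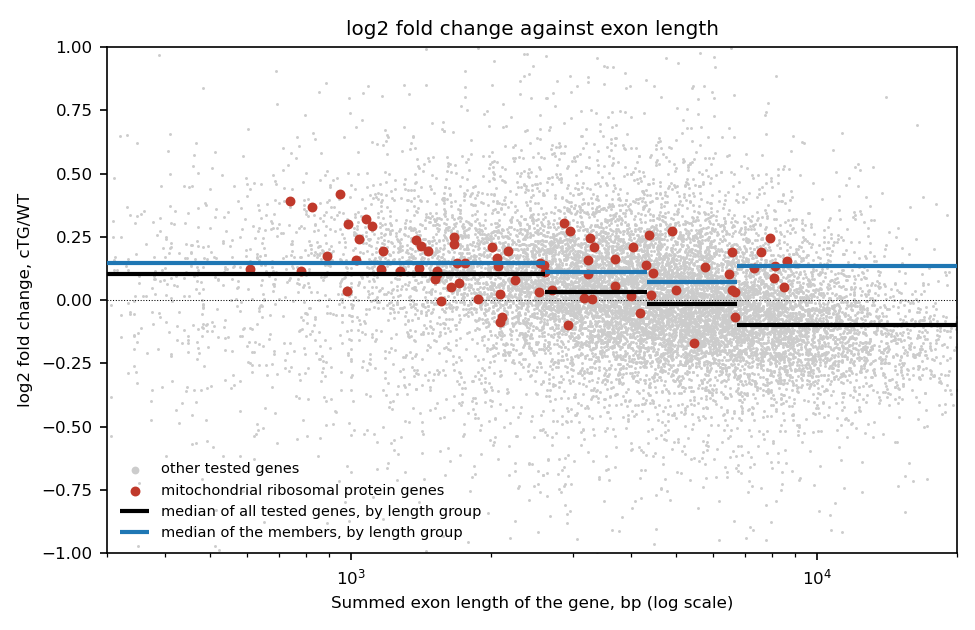
The log2 fold change of Pontin cTG over WT against the summed exon length on a log axis for the tested genes within the axis limits, with the members in red. Black and blue lines give the medians of all genes and of the members in each length group, and the black line steps down from 0.10 to -0.097 while the blue line stays above 0.

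When each library's trend with summed exon length was removed before the fit, 58 of the 77 members lay above 0. The median log2 fold change was 0.083. Of the 77, 11 (14.3%) then had all Pontin cTG libraries above all WT libraries, against 3.85% of all genes. These were Mrpl14, Mrpl17, Mrpl23, Mrpl48, Mrpl51, Mrpl58, Mrps14, Mrps21, Mrps25, Mrps26 and Mrps33, and 10 of them were among the 17 found before the trend was removed. On that scale the median member deviated by -0.018, -0.10 and -0.0068 in the WT libraries and by -0.0022, 0.080 and 0.061 in the Pontin cTG libraries. Pontin cTG replicates 2 and 3 were then close to each other. The part of length in the shift was not tested beyond these values, which do not use the length of the principal transcript.

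Other genes of mitochondrial translation were read from the same fit, and 0 of them passed an adjusted p of 0.05 in edgeR, DESeq2 or limma-voom. At an unadjusted p under 0.05 in edgeR there were 3 of 108 tested genes (2.78%), near the 2.05% of all genes, namely Gtpbp6, Pnpt1 and mt-Nd4l. A set of 5 further mitoribosomal proteins carries other symbols. Dap3, the GTP-binding protein of the small subunit, had a log2 fold change of 0.14 (SE 0.13). Those of Aurkaip1, Chchd1 and Gadd45gip1 were 0.14 (SE 0.14), 0.19 (SE 0.15) and 0.075 (SE 0.14), and that of Ptcd3, a pentatricopeptide repeat protein of the small subunit, was -0.12 (SE 0.16). Ptcd3 had 1674, 1695 and 1739 in WT and 1615, 1233 and 1847 in Pontin cTG hearts, so its value below 0 came with a low value in Pontin cTG replicate 2, and it was 0.024 without that library.

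Of 27 genes for mitoribosome assembly, 20 lay above 0, with a median log2 fold change of 0.12, and 6 had all Pontin cTG libraries above all WT libraries, against 4.7% of all genes. This count was 4 after the length trend was removed, against 3.85% of all genes. Gtpbp6, a GTPase of late large subunit assembly, had 55.1, 49.4 and 49.2 in WT and 58.6, 90.8 and 80.6 in Pontin cTG hearts. The groups did not overlap and the log2 fold change was 0.58 (SE 0.24), with an unadjusted p of 0.0376 in edgeR. Mtg1, another assembly GTPase, had a log2 fold change of 0.26 (SE 0.13), and the methyltransferases Mettl15 and Tfb1m, which modify the small subunit's RNA, had -0.15 (SE 0.21) and -0.14 (SE 0.22). The median assembly factor deviated from its own mean by 0.049, 5.8e-05 and 0.18 on the log2 scale in Pontin cTG replicates 1 to 3, so replicate 3 and not replicate 2 was the highest here.

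Mitochondrial translation factors split into 10 above and 7 below 0, with a median log2 fold change of 0.031. The median was -0.055 without Pontin cTG replicate 3, and 0.085 with 13 of 17 above 0 without Pontin cTG replicate 2. Tufm, the elongation factor that delivers aminoacyl-tRNA, had 2814, 2604 and 2913 in WT and 3141, 2986 and 3123 in Pontin cTG hearts, with no overlap (log2 fold change 0.15 (SE 0.13)). Mtres1, which helps stalled mitoribosomes, had a log2 fold change of 0.22 (SE 0.12). Lrpprc, which stabilises mitochondrial mRNAs, had 3046, 3264 and 2942 in WT and 2880, 2269 and 2712 in Pontin cTG hearts, with every Pontin cTG library below every WT library and a log2 fold change of -0.24 (SE 0.15). Taco1, a translational activator of the mRNA of cytochrome oxidase subunit 1, had a log2 fold change of -0.35 (SE 0.25), with Pontin cTG replicate 2 at 309 and Pontin cTG replicate 3 at 694 normalised counts. The 20 mitochondrial aminoacyl-tRNA synthetases split into 11 above and 9 below 0 (median 0.038), with Sars2 at 0.35 and Tars2 at 0.18 against Wars2 at -0.18. Their median was below 0, at -0.060, without Pontin cTG replicate 3, and at -0.019 without WT replicate 2. It was 0.13 without Pontin cTG replicate 2, with 15 of the 20 above 0. In that setting the median of the mitoribosomal protein genes was 0.086, so the contrast with these 2 lists depended on that library.

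**Figure D5:**
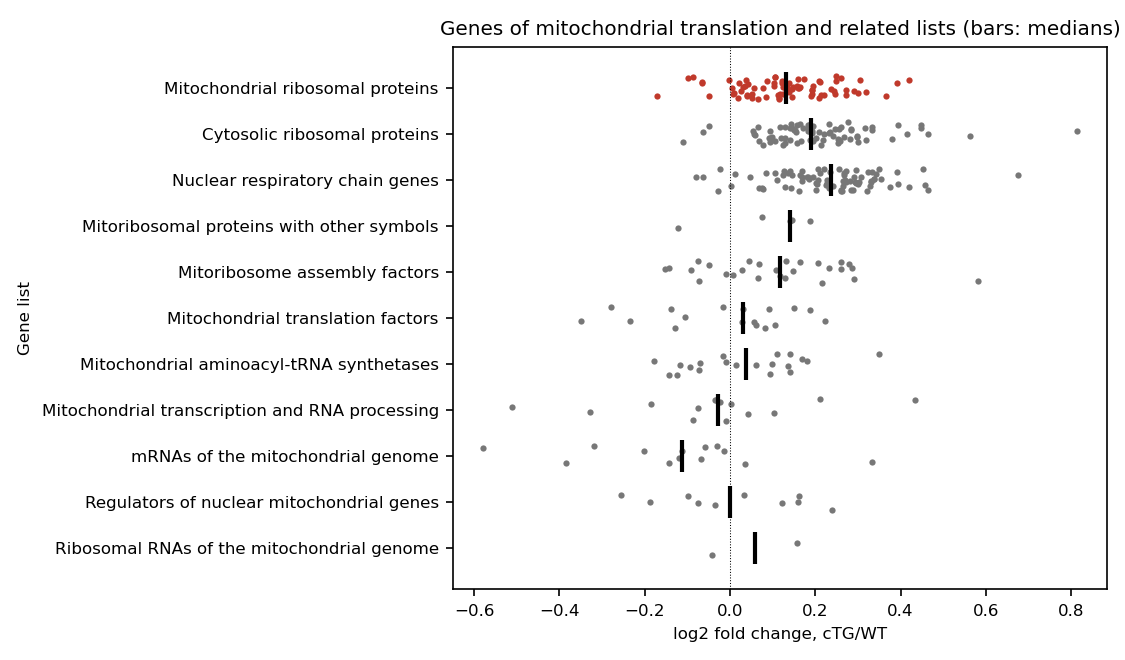
Points give each tested gene's log2 fold change of Pontin cTG over WT and bars the median, for the mitoribosomal protein genes and related gene lists. The bars of the 3 longest lists lie at 0.13, 0.19 and 0.24 and that of the mitochondrial mRNAs at -0.11. Those of the translation factors, synthetases and regulators lie near 0 in this fit of all 6 libraries.

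The RNAs made inside the mitochondrion had values on either side of 0, mostly below it. Of the 13 mRNAs of the mitochondrial genome, 2 lay above and 11 below 0, with a median log2 fold change of -0.11. The median stayed below 0 with any 1 library left out, but its size rested on few mice. It was -0.045 without WT replicate 1, -0.030 and -0.038 without Pontin cTG replicates 1 and 2, and -0.21 without Pontin cTG replicate 3. With all libraries and the length trend removed it was -0.22, and 12 of the 13 mRNAs lay below 0. The lowest p belonged to mt-Nd4l, a subunit of complex I, with a log2 fold change of -0.58 (SE 0.24) and an unadjusted p of 0.0416 in edgeR. mt-Nd5, another subunit of complex I, had 499517, 420805 and 439250 in WT and 386712, 280760 and 421741 in Pontin cTG hearts (log2 fold change -0.32 (SE 0.17)), with 1 Pontin cTG library above the lowest WT library. Values above 0 were those of mt-Nd3 (0.33 (SE 0.26)) and mt-Atp6 (0.036 (SE 0.21)). The ribosomal RNAs mt-Rnr1 and mt-Rnr2 had log2 fold changes of 0.16 (SE 0.22) and -0.043 (SE 0.23).

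For mitochondrial transcription and RNA processing, 5 of 14 genes lay above 0 and the median log2 fold change was -0.028, or 0.060 when Pontin cTG replicate 2 was left out. Pnpt1, the mitochondrial polynucleotide phosphorylase, had 425, 424 and 426 in WT and 365, 283 and 366 in Pontin cTG hearts. All Pontin cTG libraries lay below the 3 WT libraries, which were almost identical, and the log2 fold change was -0.33 (SE 0.14) with an unadjusted p of 0.0414 in edgeR. The others named by the same rule were Mterf1a (-0.51 (SE 0.44)), Mterf1b (0.43 (SE 0.46)) and Prorp (0.21 (SE 0.21)), of which the Mterf1 pair are close copies of each other with 6.93 to 25.8 normalised counts per library. The regulators of nuclear mitochondrial genes split evenly, 5 above and 5 below 0, with a median log2 fold change of -0.00088. Esrra, a nuclear receptor that drives such genes, had a log2 fold change of 0.24 (SE 0.16), and Gabpb1, a subunit of the ETS factor GABP, of 0.16 (SE 0.16). The coactivators Ppargc1a and Ppargc1b had -0.26 (SE 0.21) and -0.19 (SE 0.27). The even split of the 10 regulators moved with the fit. Without Pontin cTG replicate 2, 7 lay above 0 (median 0.086), and without Pontin cTG replicate 1, 4 did (median -0.051). With limma-voom 8 did (median 0.099).

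The cytosolic ribosomal proteins and the nuclear subunits of the respiratory chain were measured for comparison. Of 82 tested cytosolic ribosomal protein genes, 79 lay above 0 with a median log2 fold change of 0.19, and 9 had all Pontin cTG libraries above all WT libraries. Without Pontin cTG replicate 2 the median was 0.072 and 66 of 82 lay above 0. Of 84 tested nuclear genes of the respiratory chain, 80 lay above 0 with a median of 0.24, and 41 had all Pontin cTG libraries above all WT libraries. Without Pontin cTG replicate 2 their median was 0.21. All Pontin cTG libraries lay above all WT libraries in 4.7% of all tested genes. With the length trend removed, this held for 8 of the 82 and 26 of the 84 genes, against 3.85% of all tested genes. The median of the mitoribosomal genes, 0.13, lay below those of both sets, but without Pontin cTG replicate 2 it was 0.086 and lay above that of the cytosolic ribosomal proteins. No difference between sets was tested.

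Members with and without the promoter sites shown at the start covered like ranges of log2 fold change, from -0.088 to 0.39 with the ETS core and from -0.098 to 0.42 with none of the 3. The median was 0.19 for the 25 tested members with the ETS core, and 9 of them had all Pontin cTG libraries above all WT libraries, as did 4.7% of all tested genes. After the length trend was removed 7 of them did, against 3.85% of all tested genes. Those with the NRF-1 sequence had a median of 0.041 and those with the YY1 core 0.11, with 8 genes each, of which 1 and 2 were free of overlap in this direction. The 33 members with none of the 3 had a median of 0.13, equal to that of all members, and 6 free of overlap. Of the genes whose windows are printed above, Mrps21 had a log2 fold change of 0.39 (SE 0.13), Mrps18b of -0.088 (SE 0.18), and Mrps11, a small subunit protein, had 186, 193 and 199 in WT and 206, 259 and 196 in Pontin cTG hearts (log2 fold change 0.19 (SE 0.15)). Mrpl46, which starts next to Mrps11, had 453, 380.3 and 396 in WT and 441, 533 and 449 in Pontin cTG hearts and a log2 fold change of 0.21 (SE 0.14), and in both genes of the pair Pontin cTG replicate 2 was the highest library.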

How the data were processed

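RNA-seq libraries of 3 Pontin cTG and 3 WT hearts were used, grouped by the sample titles. The authors deposited whole-number counts per gene with no normalisation. Per the labels, the submitters' processing notes name fastp, HISAT2, featureCounts, DESeq2 and GRCm39, whereas the study's methods name Trimmomatic, STAR, mm10 and Gencode M25, so the aligner behind the counts is uncertain, as is how reads shared by overlapping genes or pseudogene copies were assigned. Each sample column was matched by its name, and 0 were left over.

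Counts were filtered with filterByExpr (minimum count 10), scaled by TMM and fitted with edgeR 4.0.16 (glmQLFit, robust, then glmQLFTest, genotype as the only term) in R 4.3.3, with Benjamini-Hochberg adjustment over 13888 genes. The common biological coefficient of variation was 0.197. SE is the log2 fold change divided by the square root of F. Normalised counts are counts per TMM-scaled library size times the geometric mean size, and log2 CPM used a prior count of 2. Gene length is the table's summed exon length. Its trend was removed per library by loess (span 0.5) as an offset. Genes count as free of overlap when every normalised count of one genotype exceeds every one of the other. The scripts were tested on simulated data.

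The members, gene lists and tests were chosen with earlier results of these data known. Named members are the 6 with the smallest p in each direction, those with a stated role, the 3 highest and 3 lowest levels per length, and any that failed the filter. In other lists they are the 2 smallest p in each direction, of which 1 gene is not reported here. Mrpl42, Mrps11, Mrpl46, the members free of overlap and the counts per library were chosen after their values were seen. Alternatives were DESeq2 1.42.0, its size factors, library size alone, other filters, protein-coding nuclear genes only, length offsets, a replicate block, limma-voom (limma 3.58.1) with quality weights, and each library left out. Libraries were treated as unpaired, because no source names a shared litter. The deviations of same-numbered WT and Pontin cTG libraries correlated by 0.077, 0.43 and 0.19, and those of differently numbered ones by -0.35 to 0.25. The highest value was the 0.43 of replicate 2. Counts of any 2 libraries differed beyond sampling noise (chi-square per gene at least 5.54). The replicates are separate mice, and no untreated hearts were analysed here.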

Additional observations from a re-analysis of the deposited data

How the results depend on the processing

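Under all 16 alternatives, 0 members and 0 tested genes of the related mitochondrial lists passed an adjusted p of 0.05. Of all tested genes 0 to 3 did, with 3 for limma-voom, for no filter on low counts and without Pontin cTG replicate 2. The median log2 fold change of the members stayed above 0, from 0.063 with limma-voom to 0.18 without Pontin cTG replicate 1, against 0.13 in the reported fit. Between 58 of 77 (length offsets) and 71 members lay above 0. The replicate block gave a median of 0.13, 70 members above 0 and 0 calls, with 499 genes in all at an unadjusted p under 0.05 against 285 without it. The replicate numbers are not known to pair mice, and not every library correlated best with its own number. The number of members with every Pontin cTG library above every WT library, a count added after seeing the data, was 11 with length offsets against 17. The shares of all genes were 3.85% and 4.7%. When 1 library was left out the number was 20 to 31, where fewer libraries make this easier. It was 26 with WT replicate 1 left out and 31 with WT replicate 3 or Pontin cTG replicate 1 left out. Without Pontin cTG replicate 2 it was 20 (26%), against 11% of all genes. No share of all genes is given for the other libraries, so their counts are not read as a result about the members. The number of the 77 members at an unadjusted p under 0.05 in edgeR was 1 to 9 when 1 library was left out, and the number of all genes moved too. It was 9 members without Pontin cTG replicate 1, where 636 of 14211 tested genes were at that threshold. It was 1 member without WT replicate 1 (122 of 14401 genes) and 1 without WT replicate 2 (186 of 14234 genes).

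Single genes that changed sign are given below, and the cause was not tested. Mrps23 was at 0.033 on library size alone, 0.0074 after a filter of 10 counts in every library and 0.00014 among protein-coding nuclear genes. With length offsets, Mrpl10 was at -0.023, Mrpl44 at -0.043 and mt-Atp6 at -0.072, and with the replicate block and length offsets they were at -0.030, -0.048 and -0.090. With limma-voom, Mrpl32 was at -0.049, Mrps10 at -0.033, Mrps22 at -0.013, Aurkaip1 at -0.0018, Gadd45gip1 at -0.010, Mettl15 at 0.027, mt-Nd3 at -0.12, Ppargc1b at 0.094 and mt-Rnr2 at 0.0071. With each library left out in turn, members that changed sign ranged from -0.0092 to 0.11 (Mrpl3), -0.025 to 0.10 (Mrpl32), -0.11 to 0.0082 (Mrpl35), -0.21 to 0.077 (Mrpl50), -0.092 to 0.17 (Mrps10), -0.24 to 0.024 (Mrps18b), -0.072 to 0.090 (Mrps22), -0.058 to 0.057 (Mrps23) and -0.0060 to 0.092 (Mrps5). Other genes that did so ranged from -0.26 to 0.024 (Ptcd3), -0.017 to 0.14 (Gadd45gip1), -0.23 to 0.023 (Mettl15), -0.29 to 0.029 (Tfb1m), -0.21 to 0.21 (mt-Atp6), -0.42 to 0.083 (Ppargc1b), -0.039 to 0.30 (mt-Rnr1) and -0.24 to 0.18 (mt-Rnr2). Of 1042 values under alternatives, 989 kept their direction and their side of the threshold or moved less than the spread between mice. The median log2 fold change of all genes was farthest from 0 with library size alone, at 0.031. With 3 mice a group, differences of the size seen in most members were within about 1 or 2 standard errors.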

Other observations

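Lars2, the mitochondrial leucyl-tRNA synthetase, varied more between mice than any other synthetase named here and was chosen after its values were seen. It had 6445, 1328 and 5855 normalised counts in the WT libraries and 5031, 1036 and 8633 in the Pontin cTG libraries, in the order of replicates 1 to 3 (log2 fold change 0.11, SE 0.74). The ribosomal RNA mt-Rnr2 had 95523, 71504 and 95171 in WT and 90924, 57239 and 106415 in Pontin cTG hearts. The other ribosomal RNA, mt-Rnr1, had 34599, 22877 and 33027 in WT and 32010.2, 26693 and 42272 in Pontin cTG hearts. All 3 genes were lowest in replicate 2 of each genotype, the same libraries that were at the ends of the range for the mitoribosomal protein genes.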
